A study of Mus musculus and Rattus norvegicus with 26 samples.

Results

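Intron sequence was examined in 10 genes that handle fatty acids and heat in brown fat, Cd36, Lpl, Acsl1, Acaca, Acacb, Fasn, Elovl6, Pnpla2, Cpt1b and Ucp1. Contigs were taken for a gene when its symbol stood in the gene column of 1 of the 6 lists of cytoplasmic intron-sequence retaining transcripts (CIRTs), and a contig is a run of uniquely mapped intronic reads. Of the 10 genes, 7 had contigs, among 13695 gene symbols in all, with 126 of the 112345 contigs. Fasn, Pnpla2 and Cpt1b appeared in none of the lists.

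The lists pool libraries by condition. They come from dendrites and single somas of cultured E18 hippocampal neurons (C57BL/6 mouse, 3 dendrite and 3 soma libraries by the labels, and Sprague-Dawley rat, 2 dendrite and 3 soma libraries), from single interscapular brown adipose tissue (BAT) cells of CD-1 mice at E17.5 (6 libraries), picked by their shape, and from single ventricular cardiomyocytes at E14.5 (9 libraries). Each dendrite library combined many cut dendrites. The cardiomyocytes were flow sorted from transgenic C57BL/6 mice that carry the Fucci cell cycle reporter mAG-hGem under a CMV promoter, which is active in many cell types. All RNA was amplified by 3 rounds of the aRNA method, which starts from a poly(T) primer. For BAT cells and cardiomyocytes these numbers are higher than the cell counts in the study's text. Which of the labelled BAT and cardiomyocyte libraries entered their lists is not given in the sources used here.

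Brown adipocytes burn fat to make heat. Lipoprotein lipase frees fatty acids from circulating triglyceride, CD36 helps take them up, and acyl-CoA synthetases activate them. Acetyl-CoA carboxylases, fatty acid synthase and elongases build and lengthen fatty acids, lipases release them from droplets, the carnitine shuttle carries them into mitochondria, and uncoupling protein 1 (UCP1) lets protons back into the matrix so that their energy leaves as heat. An intron read in this assay reports intron sequence in polyadenylated or adenine-rich RNA, not the amount of the spliced mRNA.

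The lists held between 1007530 (rat dendrite) and 17858440 (BAT cell) intronic reads. All contigs of an intron carry the same count, the reads of the whole intron, so this count entered once per transcript and intron. It is given as RPM, the reads of a gene for every 1000000 listed reads of its list. Since no value per library could be had, no difference between lists has a replicate check, and the 95% Wilson intervals cover counting error only. Values are for contigs of every length. The study limits contigs of whole cells to 400 nt, and since the deposited whole-cell lists hold longer ones, values under that limit are given beside many of them. An intron that keeps a contig under the limit keeps all its reads. For ratios between lists, levels of single genes and pathways, this setting was chosen after seeing the data. The BAT list held 10 of 11 BAT markers and the cardiomyocyte list 8 of 10 cardiomyocyte markers, while the mouse soma list held all 9 annotated neuron markers and the mouse dendrite list 8 of 9. The BAT list also held 8 of the 9 neuron markers (1258 RPM) and 7 of the 10 cardiomyocyte markers (3623), beside 8911 for its BAT markers. Nkx2-5, a cardiomyocyte marker, had 26804 reads in BAT cells and was not listed in cardiomyocytes. The BAT list further held 6 of 6 endothelial (431 RPM), 4 of 6 macrophage (171) and 4 of 6 astrocyte markers (45.4). In the mouse soma list stood 5 of 6 endothelial, 3 of 6 macrophage and 3 of 6 astrocyte markers. Their part in the values of the 7 genes was not tested. The mouse dendrite list also held 7 of the 10 cardiomyocyte markers (1065 RPM) and 4 of 6 astrocyte markers (966). It held 5 of 6 endothelial (1299) and 5 of 6 macrophage markers (443) as well, while its neuron markers summed to 1476.

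The 7 genes were all listed in BAT cells, with 51 introns, 68 contigs and 70183 reads, or 3930 RPM (interval 3901 to 3959). Of the other mouse lists, cardiomyocytes held 5 of the 10 genes in 17 introns (690 RPM, interval 675 to 705). Somas held 4 in 9 introns (629, interval 594 to 666) and dendrites held 5 in 20 introns (287, interval 269 to 307). Under the limit of 400 nt BAT cells had 7060 RPM, cardiomyocytes 1023, somas 966 and dendrites 307. With counts summed over contigs, somas (288) stood above cardiomyocytes (232). Rat dendrites held 4 genes in 8 introns and rat somas held Acaca alone, in 1 intron with 4 reads. The share of all annotated coding genes with an intron that were listed was 51.9% in BAT cells, 43.9% in mouse dendrites, 31.6% in cardiomyocytes and 30.1% in mouse somas. Of the genes in either rat list, 78.5% were in rat dendrites and 59.4% in rat somas. With 7 of 10 genes in BAT cells, the Wilson interval of 39.7 to 89.2% held the background share, and so did those of the other mouse lists.

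**Figure D1:**
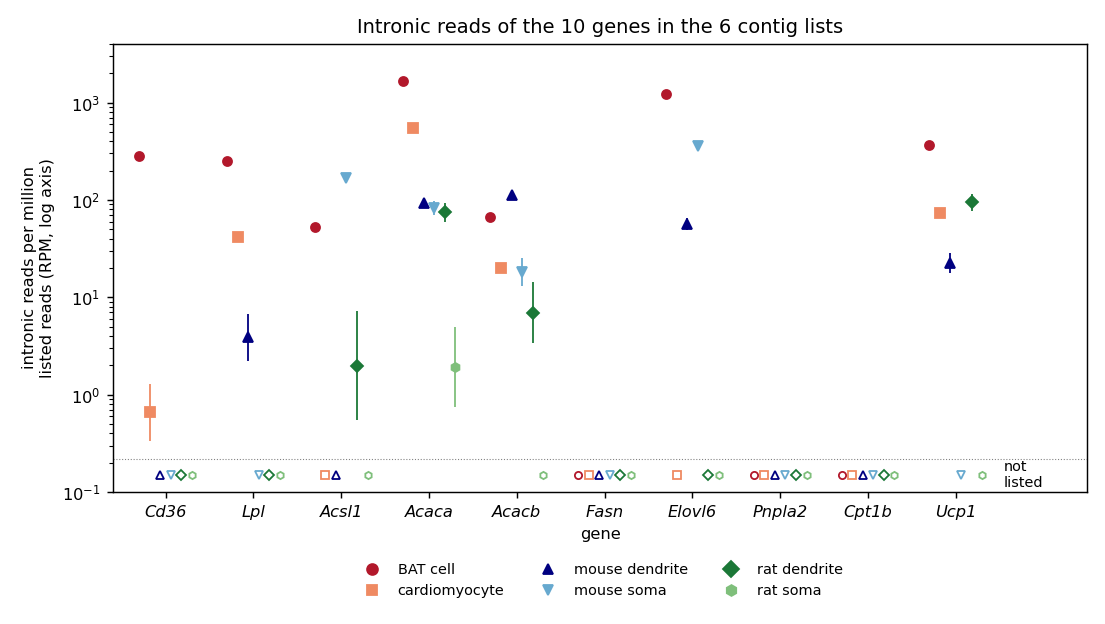
Intronic reads of a gene for every 1000000 listed reads (RPM, log axis) of the 10 genes in the 6 lists, with 95% Wilson intervals where they are wider than the symbol; open symbols at the bottom mark genes that a list does not hold. Acaca reached 1682 and Elovl6 1224 in BAT cells, and the columns of Fasn, Pnpla2 and Cpt1b hold open symbols only.

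Within the listed transcripts, 32.3% of the 158 annotated intron positions of the 7 genes were listed in BAT cells (interval 25.5 to 39.9%), against 22.7% over all listed transcripts. The shares were 16.4% against 16.5% in mouse dendrites, 12.7% against 15.1% in cardiomyocytes and 7.03% against 12.3% in mouse somas. The interval treats introns of a gene as independent, which they are not. In BAT cells Lpl (8 of 9), Ucp1 (5 of 5), Acsl1 (9 of 20) and Elovl6 (2 of 4) lay above 22.7%. Acaca (12 of 53) and Acacb (10 of 51) did not, and Cd36 had 5 introns listed over 2 transcripts. With contigs of at most 400 nt, 29 BAT introns of the 7 genes were left of 51. Short introns of the 7 genes were listed mainly in BAT cells. Of their introns under 1000 nt, 14 of 59 were listed in BAT cells, 1 of 50 in cardiomyocytes, 1 of 49 in somas and 0 of 47 in dendrites. Over all listed transcripts, introns of this class were listed at 12.4, 8.91, 4.26 and 4.17% in the same order.

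Fatty acid uptake came first in the order of the pathway. Cd36, which codes for a fatty acid translocase, lies on the minus strand at chr5:17287508-17355610 of NCBIM37 (mm9). It had 5104 reads in BAT cells (286 RPM, interval 278 to 294) in 5 introns and 10 contigs, split over 2 RefSeq transcripts that share their later introns. Intron 9 of NM_001159558, 12882 nt long, held 3069 reads in 6 contigs, of which the longest measured 2169 nt. Intron 4 of NM_007643 held 1613 reads in a single contig of 1837 nt. In cardiomyocytes Cd36 had 8 reads in 3 introns (0.656 RPM, interval 0.332 to 1.29), and the other 4 lists did not hold it. The ratio of BAT cells to cardiomyocytes was 436 (counting interval 221 to 861). Among the 5 genes in both lists, Cd36 had the largest ratio.

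Lpl, the lipoprotein lipase gene, lies at chr8:71404390-71430833 on the plus strand. It had 4455 reads in BAT cells (249 RPM, interval 242 to 257), 503 in cardiomyocytes (41.2, interval 37.8 to 45.0) and 12 in mouse dendrites (3.89, interval 2.22 to 6.80). Soma lists and rat dendrites held no Lpl contig. The order of BAT cells and cardiomyocytes rests on long contigs. Under the limit of 400 nt Lpl had 94 reads in BAT cells (12.2 RPM, interval 9.99 to 15.0) and 235 in cardiomyocytes (50.4, interval 44.3 to 57.2). In BAT cells 8 of its 9 introns were listed, with only intron 1, the longest at 6602 nt, missing. Intron 2 held 2961 of the BAT reads, 231 of the cardiomyocyte reads and all 12 dendrite reads.

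All 4 contigs in intron 2 of Lpl, from the 3 lists, lay inside a single exon of an annotated alternative transcript of the gene, ENSMUST00000101463.2, of the class retained intron. This exon lies at chr8:71411342-71413580 and continues exon 2 into the intron. The BAT contig ended at base 71413573, short of the annotated end of that transcript. Its last 300 bases (chr8:71413274-71413573, plus strand) are printed because they hold this end, with the hexamer AATAAA of the poly(A) signal in capitals.
Lpl intron 2, BAT cell: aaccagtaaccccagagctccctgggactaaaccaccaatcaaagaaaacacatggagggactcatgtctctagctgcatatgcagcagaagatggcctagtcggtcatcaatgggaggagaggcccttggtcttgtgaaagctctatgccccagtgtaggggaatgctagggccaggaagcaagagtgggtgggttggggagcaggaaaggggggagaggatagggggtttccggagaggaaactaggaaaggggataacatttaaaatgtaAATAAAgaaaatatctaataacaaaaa
AATAAA stood in the last 50 nt of 3 of the 68 member contigs in BAT cells, those of Lpl intron 2, Acacb intron 48 and Cd36 intron 10, and of 1 of 17 in cardiomyocytes. Over all contigs it stood there in 7.12% in BAT cells, 10.8% in cardiomyocytes, 9.58% in mouse dendrites and 10.6% in mouse somas. The match is to these letters on the strand of the gene and is a description only. Introns with a site in a poly(A) database had been removed by the study before the lists were made.

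Farther along Lpl the BAT contigs filled whole introns. Introns 7, 8 and 9, of 1610, 953 and 2120 nt, each held 1 contig that reached both ends, with 177, 677 and 500 reads. They flank exon 8 (183 nt) and exon 9 (102 nt). Introns 3, 4 and 6 had a contig that began at the 5′ end, and introns 5 and 6 had a contig that reached the 3′ end. In cardiomyocytes intron 7 held 268 reads in a contig of 1331 nt that also began at the first base of the intron and stopped 279 nt before its end, and intron 9 held 4 reads.

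Activation of fatty acids was represented by Acsl1, an acyl-CoA synthetase gene at chr8:47556395-47621405. It had 941 reads in 9 of 20 introns in BAT cells (52.7 RPM, interval 49.4 to 56.2), 310 reads in intron 10 alone in mouse somas (167, interval 149 to 187) and 2 reads in rat dendrites. Cardiomyocytes, mouse dendrites and rat somas had none listed. Acsl1 was the one gene of the 7 for which the soma value exceeded the BAT value. Under the limit of 400 nt it left the soma list, since its contig there measured 581 nt, and it had 21 reads left in BAT cells (2.73 RPM, interval 1.79 to 4.17).

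The BAT reads of Acsl1 lay mainly in introns 7 (593 reads) and 10 (270 reads). Intron 10 was shared by BAT cells and somas, and their contigs ended 2 nt apart, at bases 47606465 and 47606467, while their 5′ ends lay 495 nt apart. The end of the soma contig (chr8:47606168-47606467, plus strand) is printed because an adenine run, in capitals, lies on it.
Acsl1 intron 10, mouse soma: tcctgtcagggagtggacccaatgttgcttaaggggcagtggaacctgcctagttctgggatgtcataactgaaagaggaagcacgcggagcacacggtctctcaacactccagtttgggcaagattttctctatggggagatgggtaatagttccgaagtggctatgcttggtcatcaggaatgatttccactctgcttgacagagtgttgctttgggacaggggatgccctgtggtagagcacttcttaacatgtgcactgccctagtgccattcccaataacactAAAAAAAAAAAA
Elovl6 in somas, described with the chain-building genes, ended likewise on an adenine run. The run across the contig end measured 13 nt in Acsl1 and 14 nt in Elovl6 as the genome has it.

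The carboxylases make malonyl-CoA, ACACA for synthesis in the cytosol and ACACB at the mitochondrial surface, where malonyl-CoA restrains the carnitine shuttle. Acaca (chr11:84008940-84215147, 53 introns) was the only gene of the 10 in all 6 lists. Its reads numbered 30043 in BAT cells, 6761 in cardiomyocytes, 288 in mouse dendrites, 153 in mouse somas, 75 in rat dendrites and 4 in rat somas. In RPM these were 1682 (interval 1663 to 1701), 554 (541 to 567), 93.3 (83.1 to 105), 82.5 (70.4 to 96.6), 74.4 (59.4 to 93.3) and 1.91 (0.743 to 4.91). BAT cells stood highest and cardiomyocytes next, the intervals of mouse dendrites, mouse somas and rat dendrites overlapped, and rat somas stood lowest. Under the limit of 400 nt mouse somas (172 RPM, interval 147 to 202) stood above mouse dendrites (107, interval 92.8 to 124). By reads, Acaca ranked 80 of the 10220 genes in the BAT list.

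A single intron carried most of the BAT reads. Intron 40 of Acaca, 3343 nt long, held 23382 reads in 3 contigs, which was 77.8% of the gene's reads and rank 104 of 30018 introns. The contigs lay at the 5′ end of the intron (234 nt), in its middle (1170 nt) and at its 3′ end (127 nt), and the reads cannot be divided among them. Intron 41 held 1012 reads, with 1 contig of 203 nt beginning at its first base. Exon 41, 98 nt long at chr11:84155429-84155526, was therefore bordered by contigs on both sides in BAT cells. The same was seen in cardiomyocytes, with 113 reads in a contig of 97 nt that reached the 3′ end of intron 40 and 3030 reads in a contig of 215 nt that opened intron 41. The BAT and cardiomyocyte contigs in intron 41 differed by 0 nt at their 5′ ends and by 12 nt at their 3′ ends.

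The cardiomyocyte contig of intron 41 (chr11:84155527-84155741, plus strand) had the most reads per base among the single-contig introns of the 7 genes, 705 reads per 50 nt. It is printed whole because it joins exon 41 at the 5′ splice site, whose GT is in capitals.
Acaca intron 41, cardiomyocyte: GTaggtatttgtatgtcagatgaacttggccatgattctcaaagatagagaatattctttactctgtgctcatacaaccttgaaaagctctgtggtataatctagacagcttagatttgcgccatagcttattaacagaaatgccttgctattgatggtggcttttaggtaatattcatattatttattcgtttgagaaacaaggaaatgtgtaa
No adenine run of 8 or more appears in it. Mouse dendrites (2 reads) and somas (54 reads) also had intron 41 listed, but their contigs lay elsewhere in it and overlapped those of neither BAT cells nor cardiomyocytes. Rat dendrites held 73 of their 75 Acaca reads in the intron numbered 41 of the rat transcript NM_022193. Whether that intron corresponds to the mouse one was not tested.

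Cardiomyocytes had other introns of Acaca listed as well. Intron 28 held 3371 reads there in a contig of 546 nt and was not listed in BAT cells, while BAT intron 27 held 2810 reads and was not listed in cardiomyocytes. The cardiomyocyte contig overlaps Gm17722, a predicted gene on the opposite strand, whose annotated exons cover 6 nt of it. Of the 3 BAT contigs in intron 27 only that of 1238 nt overlaps Gm17722, with 8 nt on its exons, and the reads of the intron cannot be divided among the 3. The dendrite contig of intron 27 lies in the span of Gm17722 as well. The protocol does not mark strand, so reads of the 2 genes cannot be told apart there. In mouse dendrites Acaca was spread over 10 introns of 2 to 117 reads, led by intron 27, and in somas over 6 introns of 2 to 74 reads, led by intron 14.

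Acacb (chr5:114615527-114700764, 51 introns) had 1182 reads in BAT cells (66.2 RPM, interval 62.5 to 70.1), 344 in mouse dendrites (111, interval 100.3 to 124), 243 in cardiomyocytes (19.9, interval 17.6 to 22.6), 34 in mouse somas (18.3, interval 13.1 to 25.6) and 7 in rat dendrites. With contigs of every length it was the one gene of the 7 that stood higher in mouse dendrites than in BAT cells, through a contig of 1319 nt in intron 36. Limited to contigs of 400 nt in both lists, the values were 54.7 RPM in dendrites (interval 44.8 to 66.8) and 56.7 in BAT cells (51.6 to 62.3). The leading intron differed between lists. It was intron 48 in BAT cells (731 reads), intron 47 in cardiomyocytes (241 reads), intron 36 in mouse dendrites (248 reads) and intron 18 in mouse somas (34 reads). Intron 18 was the one that dendrites and somas shared with overlapping contigs.

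ELOVL6 lengthens saturated products of synthesis such as palmitate. Its gene (chr3:129235304-129341413) has 4 introns, and nearly all reads fell in intron 3, of 23110 nt. This intron held 21856 of 21862 reads in BAT cells (1224 RPM for the gene, interval 1208 to 1241), all 670 in mouse somas (361, interval 335 to 389) and 166 of 174 in mouse dendrites (56.4, interval 48.6 to 65.4). Intron 2, the longest at 72272 nt, was listed nowhere. Cardiomyocytes and both rat lists held no Elovl6 contig. The 4 BAT contigs covered 3078 nt, or 13.3% of the intron, at 355 reads per 50 nt.

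In intron 3 the soma and dendrite contigs of Elovl6 did not overlap. The soma contig, 356 nt long, lay 1665 nt from the nearest dendrite contig. It lay wholly inside the BAT contig of 1271 nt, while of the 2 dendrite contigs in intron 3, 1 lay inside the BAT contig of 313 nt and the other overlapped none. The last 300 bases of the soma contig (chr3:129315237-129315536, plus strand) are shown with their final adenine run in capitals.
Elovl6 intron 3, mouse soma: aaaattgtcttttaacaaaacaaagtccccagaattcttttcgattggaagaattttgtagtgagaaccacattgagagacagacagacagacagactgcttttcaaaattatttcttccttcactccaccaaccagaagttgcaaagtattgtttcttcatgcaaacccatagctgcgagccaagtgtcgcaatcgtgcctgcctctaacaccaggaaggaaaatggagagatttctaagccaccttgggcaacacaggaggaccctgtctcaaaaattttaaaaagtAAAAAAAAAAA
At 94.1 reads per 50 nt this was the densest single-contig intron of the 7 genes in somas.

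Ucp1, the gene of the brown fat uncoupling protein, is short, with 6465 nt of intron at chr8:85814247-85822355. It had 6596 reads in BAT cells (369 RPM, interval 361 to 378), 95 in rat dendrites (94.3, interval 77.1 to 115), 899 in cardiomyocytes (73.7, interval 69.0 to 78.7) and 69 in mouse dendrites (22.4, interval 17.7 to 28.3). Neither soma list held it. Short contigs alone put cardiomyocytes highest of the mouse lists, with all 899 reads kept under the limit of 400 nt (193 RPM, interval 180 to 206), against 362 reads in BAT cells (47.1, interval 42.5 to 52.2) and 69 in dendrites (39.3, interval 31.1 to 49.7). All 5 introns were listed in BAT cells, with 9, 16, 337, 624 and 5610 reads for introns 1 to 5. The counts, not scaled for length, rose toward the 3′ end of the transcript. Per 50 nt of contig they were 2.71, 0.980, 181, 35.3 and 112, highest in intron 3. Introns 3, 4 and 5 were each filled by 1 contig.

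Intron 3 of Ucp1, only 94 nt long, is shown whole (chr8:85817988-85818081, plus strand), with the GT and AG of its splice sites in capitals, since its contig ran from end to end at 181 reads per 50 nt.
Ucp1 intron 3, BAT cell: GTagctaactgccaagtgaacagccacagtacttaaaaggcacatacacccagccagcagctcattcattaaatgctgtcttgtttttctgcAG
Intron 4 (884 nt) and intron 5 (2507 nt) follow after exon 4 of 102 nt and exon 5 of 181 nt. Rat dendrites had the introns numbered 3, 4 and 5 of the rat transcript NM_012682 listed. Their contigs of 90, 464 and 212 nt held 57, 22 and 16 reads. Whether these introns correspond to the mouse ones was not tested. Cardiomyocytes had intron 5 alone, with all 899 reads in a contig of 396 nt. Mouse dendrites held 64 of their 69 reads in intron 5, in a contig of 294 nt that lay 307 nt from the cardiomyocyte contig, both inside the BAT contig.

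Since Ucp1 marks brown adipocytes, the other BAT markers were read beside it. The 11 BAT markers, Ucp1 included, summed to 8911 RPM in BAT cells, 425 in mouse dendrites, 290 in cardiomyocytes and 2.16 in mouse somas. Of them, 6 were listed in mouse dendrites, 4 in cardiomyocytes and 2 in somas. Plin1 and Adipoq were listed in BAT cells alone, and Fabp4 had 78875 reads in BAT cells, 282 in mouse dendrites and none listed in cardiomyocytes. Cidea had 2600 reads in cardiomyocytes and 1548 in BAT cells. Under the limit the 11 markers summed to 8907, 612, 202 and 4.51 RPM in BAT cells, mouse dendrites, cardiomyocytes and mouse somas. Fabp4 and Cox8b left the BAT list, and Cidea left the cardiomyocyte and mouse dendrite lists. Of the 68505 BAT reads then left, from 159133 with contigs of every length, 52450 were of Pparg. The part of these markers in the Ucp1 values was not tested.

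**Figure D2:**
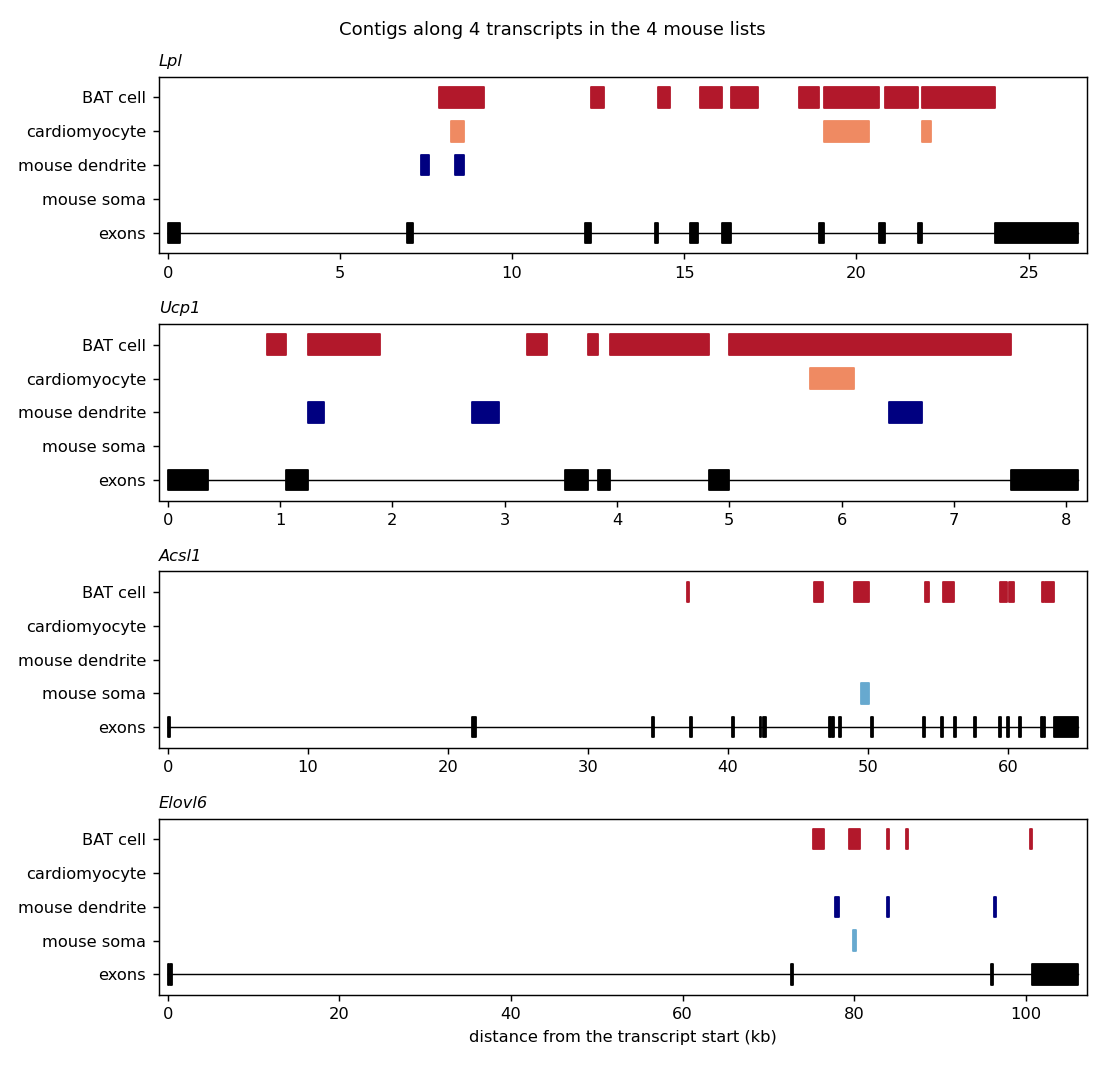
Contigs of the 4 mouse lists (colored bars) along the annotated transcripts of Lpl, Ucp1, Acsl1 and Elovl6, in kb from the transcript start, with exons in black. The BAT bars meet the exons on both sides in introns 7 to 9 of Lpl and introns 3 to 5 of Ucp1, and the soma and dendrite bars of Elovl6 lie apart.

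Per kb of annotated intron, which allows genes to be compared, Ucp1 led in BAT cells with 57.1 RPM per kb, and 99.1% of the listed genes had this value or less. Elovl6 followed with 12.2, Lpl with 11.2, Acaca with 8.53 and Cd36 with 4.42, and Acacb and Acsl1 both had 0.862. The median of all genes in the BAT list was 0.345. This order changed under the limit of 400 nt, where Elovl6 led in BAT cells with 28.4. Acaca followed with 18.5, Ucp1 with 7.28 and Cd36 with 6.94, and 92.4% of the listed genes had the Ucp1 value or less. Elovl6 intron 3 and Acaca intron 40 kept all their reads, since each also holds a short contig, while Ucp1 intron 5 lost its 5610. Lpl fell to 0.547 in BAT cells, and Acsl1 fell to 0.0447, under the median of 0.282. Contigs of every length taken, Ucp1 also led in cardiomyocytes, with 11.4 against a median of 0.465, followed by Acaca with 2.81 and Lpl with 1.85, while Acacb with 0.259 and Cd36 with 0.0101 lay under the median. Under the limit Acacb moved above it in cardiomyocytes, with 0.678 against 0.332. In mouse dendrites Ucp1 had 3.46 and Acacb 1.45, while Elovl6, Acaca and Lpl lay under the median of 0.689. Under the limit dendrite Elovl6 moved above it, with 0.990 against 0.634. In mouse somas Elovl6 had 3.61 and Acsl1 2.73, above the median of 0.678, and Acaca and Acacb lay under it. Under the limit soma Acaca moved above it, with 0.874 against 0.645, and Acsl1 was not listed.

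Introns of the 7 genes filled from end to end were seen in BAT cells alone among the mouse lists. A contig was taken to fill an intron when it came within 5 nt of both ends. This held for 11 of the 51 listed introns of the 7 genes in BAT cells, which were introns 7, 8 and 9 of Lpl, 13, 16, 19 and 20 of Acsl1, 9 of Acacb and 3, 4 and 5 of Ucp1. With contigs of at most 400 nt only, a setting chosen after seeing the data, 3 of 29 introns were filled, those of Acsl1 (intron 19), Acacb and Ucp1 (intron 3) and none of Lpl, against 8.84% of all introns. Since reads up to 500 bp apart were joined into 1 contig, a filled intron need not be covered at every base. Intron 13 of Acsl1 had only 4 reads for a contig of 810 nt. Over all listed introns, contigs of every length included, filling held for 11.2% in BAT cells, 10.2% in cardiomyocytes, 2.21% in mouse somas and 0.861% in mouse dendrites. None of the 17 introns of the 7 genes in cardiomyocytes, 9 in somas or 20 in dendrites was filled. With so few introns this cannot be told apart from the shares over all introns. Length moves with the count of filled introns. In cardiomyocytes only 1 of the 17 was under 1000 nt, a class filled at 43.9% over all introns. From 1000 up to 3000 nt that share was 2.97%. In BAT cells 8 of the 14 listed introns under 1000 nt were filled, against 47.9% of all such introns, and 3 of the 19 introns from 1000 up to 3000 nt, against 3.79%.

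The 3 of these longer introns, in Lpl and Ucp1, included the last intron of each gene. The last intron of Acsl1 was also filled, with 26 reads over 703 nt. Of the 11 filled introns 9 lay beyond the middle of their transcript by intron number, and among all filled introns in BAT cells this share was 69.4%. Cd36, Acaca and Elovl6, which held 57009 of the 70183 BAT reads, had no filled intron. Their reads stood in contigs that covered 3.17 to 45.8% of the intron.

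**Figure D3:**
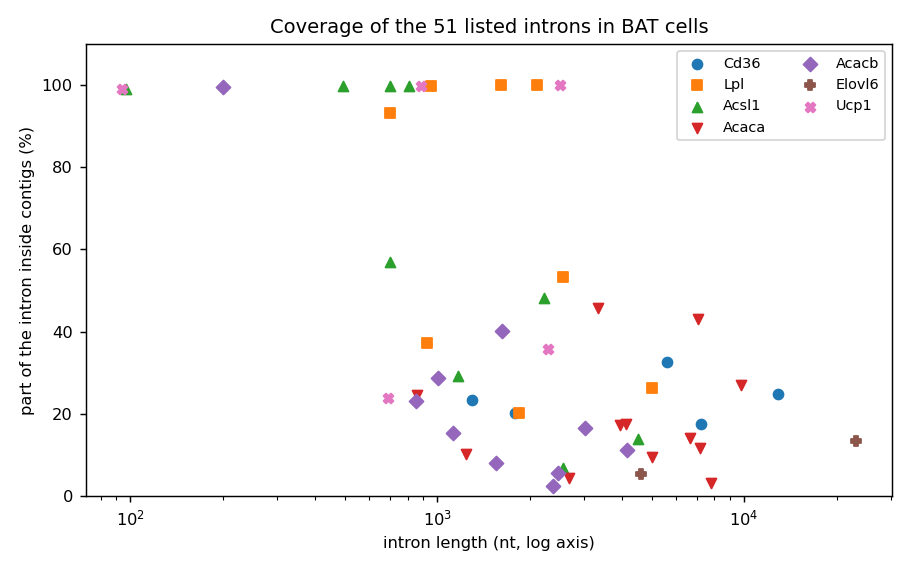
Part of each of the 51 listed introns of the 7 genes that lay inside BAT contigs (y axis, percent) against intron length (x axis, nt, log scale), with 1 symbol per gene. The 11 points near 100% belong to Lpl, Acsl1, Acacb and Ucp1, and no intron above 2507 nt is among them.

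Fasn, Pnpla2 and Cpt1b code for fatty acid synthase, adipose triglyceride lipase and the muscle form of carnitine palmitoyltransferase 1. Their annotated introns are short and few in bases. Fasn has 42 introns of 8652 nt in all, of which the longest measures 1177 nt, Cpt1b has 18 introns of 6564 nt, and Pnpla2 has 8 introns of 2921 nt. Of the annotated coding genes with less than 10000 nt of intron, 26.6% were listed in BAT cells, 15.4% in mouse dendrites, 14.4% in cardiomyocytes and 11.1% in mouse somas. For genes with 50000 nt or more, the class of Acaca, Acacb, Acsl1, Cd36 and Elovl6, these shares were 77.0, 75.2, 53.8 and 56.5%. Ucp1 falls in the first class and was listed in 3 of the 4 mouse lists. As the lists leave out introns that overlap predicted genes or poly(A) sites, a gene that is not listed may have had intronic reads.

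The comparison of BAT cells with cardiomyocytes could be made for the 5 genes in both lists. Lpl and Ucp1 were 6.05-fold (counting interval 5.52 to 6.64) and 5.01-fold (4.68 to 5.37) higher in BAT cells, and Cd36 was past the 4-fold rule as given above. Acacb and Acaca were higher by 3.32-fold (2.90 to 3.81) and 3.04-fold (2.96 to 3.12), which the rule does not call. Of the 5442 genes in both lists, 34.3% were called higher in BAT cells and 28.3% lower. The median ratio of all of them was 1.25. The call of 3 of 5 genes higher and 0 lower holds with contigs of every length only. When both lists were limited to contigs of 400 nt, Lpl was at a ratio of 0.243 (0.191 to 0.308) and Ucp1 at 0.244 (0.216 to 0.276), both called lower in BAT cells. Cd36 was then at 262 and Acaca at 5.02 (4.85 to 5.21), both called higher, and Acacb was at 1.09 (0.931 to 1.27). Of the 4309 genes in both lists under that limit, 34.4% were called higher and 26.9% lower.

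In mouse dendrites against somas, Acacb was 6.08-fold higher (4.28 to 8.64), Acaca was at a ratio of 1.13 (0.930 to 1.38), and Elovl6 was at 0.156 (0.132 to 0.184), which is past the rule in the direction of somas. Among the 4739 genes in both lists, 33.2% were called higher in dendrites and 24.9% lower. With contigs of at most 400 nt in both lists, Acacb fell short of the rule at 1.43 (0.968 to 2.11), Acaca turned to 0.621 (0.502 to 0.769) and Elovl6 stayed past it at 0.131 (0.111 to 0.155), with 33.8% of 3635 genes called higher and 25.1% lower. With the limit on somas only, the ratios were 2.91, 0.541 and 0.0747. Lpl and Ucp1 were listed in mouse dendrites and not in somas, and Acsl1 in somas and not in dendrites. In rat the one shared gene was Acaca, at 39.0-fold (14.8 to 103) with only 4 reads in somas. Of 2166 shared rat genes, 35.7% were called higher in dendrites and 24.6% lower. The ratio of rat Acaca was 29.8 (11.3 to 78.4) with the limit on both lists and 11.5 (4.39 to 30.4) on somas only.

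The use of the same introns in several lists was examined in mouse. Of 66 introns of the 7 genes in any mouse list, 22 (33.3%) were in more than 1 list, against 39.5% of 46599 introns over all genes. Intron 41 of Acaca was in all 4 lists. The contigs overlapped in 17 of the 22 introns (77.3%), against 64.5% of the 18386 shared introns over all genes. In Acaca intron 35 the BAT and cardiomyocyte contigs, with 2 and 7 reads, began at the same base, 302 nt inside the intron. In Acaca intron 3 those of 859 and 234 reads ended 14 nt apart.

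Adenine tracts were searched because the first primer of the amplification pairs with adenines. A run of 10 or more A within 300 nt downstream of the contig, on the strand of the gene, was found for 3 of 68 contigs of the 7 genes in BAT cells, 4 of 17 in cardiomyocytes, 1 of 9 in mouse somas and 0 of 23 in mouse dendrites. Over all contigs the shares were 7.36, 9.53, 18.6 and 8.11%. With the last 50 nt of the contig added to the window, the counts were 5, 5, 3 and 2, and the shares over all contigs were 11.3, 17.4, 26.1 and 14.5%. The 5 in cardiomyocytes were in Ucp1 intron 5, Lpl intron 7 and Acaca introns 3, 33 and 35. The first of these, downstream of a contig of 899 reads, is shown from the contig end onward (chr8:85820360-85820404, plus strand), with the run in capitals.
Ucp1 intron 5, cardiomyocyte, downstream: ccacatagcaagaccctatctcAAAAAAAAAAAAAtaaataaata
The run began 22 nt after the contig. Runs of A also lay 2 nt after the Cd36 contig of 1613 reads and across the end of the Acsl1 intron 7 contig of 593 reads in BAT cells. The Acaca contigs that border exon 41 had none in either window.

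The wider pathways were read from 7 gene lists that include the 10 genes. In BAT cells 20 of 21 genes of the carnitine shuttle and beta-oxidation were listed, Cpt1b being the exception, 18 of 21 of triglyceride synthesis and lipid droplets, 11 of 13 of lipid uptake and intravascular lipolysis, 7 of 8 of fatty acid activation, 6 of 8 of the lipolysis of stored fat, 16 of 25 of fatty acid synthesis, elongation and desaturation, and 9 of 16 of thermogenesis. All 7 shares lay above the background of 51.9%, from 56.2% for thermogenesis to 95.2% for beta-oxidation. In cardiomyocytes beta-oxidation had 15 of 21 genes listed (71.4%, background 31.6%), and fatty acid synthesis 7 of 25 (28.0%), the one list of the 7 under that background. Mouse somas ranged from 2 of 8 for lipolysis to 4 of 8 for activation, and 6 of the 7 shares lay above their background of 30.1%. In mouse dendrites 5 of the 7 lay above 43.9%, with beta-oxidation highest at 14 of 21 (66.7%). With contigs of at most 400 nt, 6 of the 7 shares lay above the background in BAT cells, where thermogenesis had 7 of 16 genes (43.8%) against 46.4%, and 6 in cardiomyocytes, 4 in somas and 5 in dendrites did.

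The summed reads of these pathways did not follow the number of genes listed. Fatty acid activation was lowest in BAT cells, at 158 RPM against 1047 in cardiomyocytes, 335 in somas and 309 in dendrites, and it was also lowest there under the limit, at 72.8. Acss1, an acetyl-CoA synthetase gene, carried 79.8% of the cardiomyocyte reads. Thermogenesis had 1011 in BAT cells, 4500 in cardiomyocytes, 4327 in somas and 1967 in dendrites. Under the limit it had 1227, 491, 184 and 1225 in the same order. Of the soma value with contigs of every length, 96.9% came from Slc25a4. Beta-oxidation had 4667 in BAT cells and 5328 in dendrites, and 2138 and 9175 under the limit. Acads, the gene of a short-chain acyl-CoA dehydrogenase, carried 10392 of the 16446 dendrite reads and had 36 reads in BAT cells. Without it dendrites had 1961 for this pathway, and 3256 under the limit. Acads and Acss1 were named after their values were seen. Uptake, synthesis, triglyceride synthesis and lipolysis of stored fat were highest in BAT cells with contigs of every length and under the limit. For uptake and synthesis this rested on few genes. Fabp4 carried 86.8% of the BAT uptake reads. Under the limit uptake was at 590 in BAT cells and 540 in somas, and Cd36 carried 76.0% of the BAT reads. Of 56848 BAT reads of synthesis, Acaca held 30043 and Elovl6 21862, and the order of the lists without both was not tested.

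**Figure D4:**
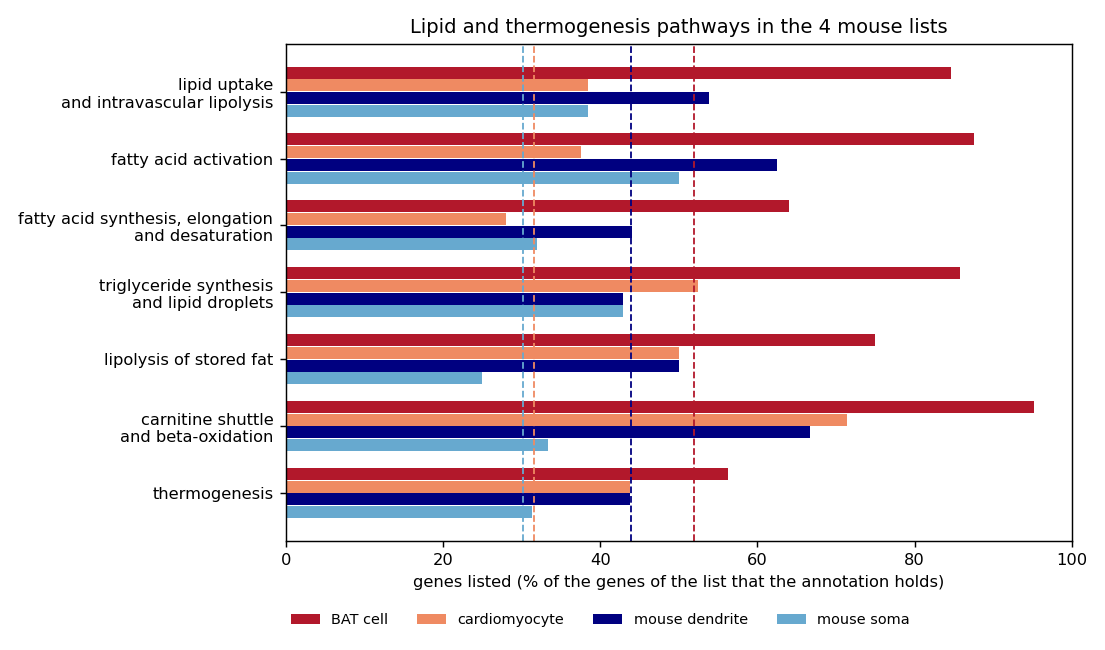
Percent of the annotated genes of 7 pathway lists that had a contig in each of the 4 mouse lists (bars), with the share over all annotated coding genes as a dashed line of the same color. The BAT bars run from 56.2% for thermogenesis to 95.2% for the carnitine shuttle and beta-oxidation, all to the right of the BAT line at 51.9%.

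Among the other genes of these pathways, those with the most BAT reads in each list are named. Fabp4, the adipocyte fatty acid binding protein gene, had 4417 RPM in BAT cells and 91.4 in mouse dendrites, and more BAT reads than the 7 genes together. None of the 78875 BAT reads lay in an intron with a contig of at most 400 nt, while all 282 dendrite reads did. Lrp1, which codes for a large endocytic receptor, had 39.2 in BAT cells and 54.4 in mouse dendrites, and under the limit 18.1 and 0. Acsl3, Acsl5 and Acss2, for fatty acid activation, had 74.0, 13.8 and 11.1 in BAT cells. Acsl3 had 55.5 and Acsl5 95.9 in mouse somas, and Acss2 had 56.6 in rat dendrites. Under the limit none of the 1321 BAT reads of Acsl3 and 14 of its 103 soma reads were left. Srebf2, which codes for a regulator of sterol synthesis, had 180 in BAT cells and 704 in mouse somas, and under the limit 0 and 41.7. The desaturase gene Fads2 had 9.30 in BAT cells against 177 in cardiomyocytes, where 4 of its 2159 reads were left under the limit. Elovl2, an elongase gene, had 9.18 and was listed in BAT cells alone.

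The lipid droplet genes Plin1 (753 RPM) and Plin5 (449) were likewise listed in BAT cells alone, and Agpat9 had 126 there and 220 in mouse dendrites. For the lipolysis of stored fat, Pnpla3 was listed in BAT cells alone with 267, while Pde3b had 375 there and 527 in mouse dendrites and Lipa 61.5 in BAT cells (23.5 under the limit). Etfdh, Etfa and Hadha, mitochondrial genes of fatty acid oxidation, had 1147, 981 and 714 in BAT cells and 117, 507 and 127 in cardiomyocytes. Under the limit BAT cells had 5.98, 151 and 106, and cardiomyocytes 0, 725 and 203. In the thermogenesis list Prkar2b had 247 and Dio2, which makes active thyroid hormone, 173 in BAT cells, and both were absent from the cardiomyocyte list. Slc25a4, the gene of an adenine nucleotide carrier, had 99.8 in BAT cells against 2712 in cardiomyocytes and 4191 in mouse somas. None of its reads in these 3 lists was left under the limit.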

How the data were processed

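Libraries of single cells or dendrites were amplified by the aRNA method and sequenced by the authors, who aligned the reads, kept unique intronic reads, removed introns with predicted genes, poly(A) sites or junction reads only, joined reads no more than 500 bp apart into contigs and pooled the libraries of a condition. The counts, as deposited by the authors, are raw numbers of reads per intron without normalization. The builds named in the submitters' processing notes are mm9 and rn4. Library totals from the study were used for the neuronal lists, as an alternative scaling; for the other lists depth is known here as listed reads. Intervals cover counting error only.

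Starts were shifted by 1 to count from 1. Contigs at the right edge of an intron stop 1 nt before it, and ends were kept as deposited. Of 13156 mouse RefSeq transcripts, 12940 were matched by intron positions to the GENCODE vM1 annotation of NCBIM37, which also gave the sequences; for rat no genome was used. Contigs of all lengths were kept. Ratios are of RPM (reads of a gene for every 1000000 listed reads), with a 4-fold rule of size, and Wilson intervals (95%) came from Python 3.11.15 and scipy 1.17.1. The helper functions were tested on simulated data. Genes were named by a rule: the 10 genes, and of each pathway list the 3 others with the most BAT reads, of which 1 is not reported here; of single-contig introns, the 2 with the most reads per nt in each mouse list were taken for sequence, of which 5 are printed, and 1 downstream window was added after its values were seen. The genes and lists were chosen with earlier results of these data known. Alternatives were contigs of at most 400 nt, 2 read minimums, introns by position, exclusion of contigs on annotated exons or other genes, other sums and scalings, and other overlap and tract rules.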

Additional observations from a re-analysis of the deposited data

How the results depend on the processing

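No paired analysis was possible because the lists pool the libraries of a condition, and for the same reason no library could be left out. Read minimums moved the counts most. With at least 32 reads per intron, the introns of the 7 genes numbered 27 in BAT cells, 8 in cardiomyocytes, 8 in mouse dendrites, 5 in mouse somas, 2 in rat dendrites (2 genes) and 0 in rat somas (0 genes). With a minimum 8 times as high they numbered 20, 4, 0, 2, 0 and 0, in 7, 3, 0, 2, 0 and 0 genes. With contigs of at most 400 nt, 29 BAT introns were left, still in 7 genes. Leaving out contigs on annotated exons or other genes kept every mouse count within 1.5 times and was not run for rat. Counting introns by position kept every count within 1.5 times in all 6 lists. With contigs of at most 400 nt, chosen after seeing the data, 3 BAT introns were filled from end to end, against 11. Under the same limit the BAT to cardiomyocyte ratios of Lpl and Ucp1 turned to 0.243 and 0.244, Acaca reached 5.02 and Acacb 1.09. The mouse dendrite to soma ratio of Acaca turned to 0.621, Acacb was at 1.43 and Elovl6 at 0.131. With the limit on somas only, these were 0.541, 2.91 and 0.0747, and rat Acaca was at 11.5. Every count of pathway lists above the background stayed within 1.5 times.

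With counts summed over contigs, the 7 genes had 4790 RPM in BAT cells, 232 in cardiomyocytes and 288 in mouse somas. Mouse dendrites then had 159 and rat dendrites 128. With contigs of at most 400 nt the values were 7060 in BAT cells, 1023 in cardiomyocytes, 966 in mouse somas and 307 in mouse dendrites. Rat dendrites had 402 and rat somas 6.45 under that limit. BAT cells stood highest in each setting, while somas stood above cardiomyocytes when counts were summed. The BAT value under the limit holds all reads of Acaca intron 40 (23382) and Elovl6 intron 3 (21856). Both introns also have contigs over 400 nt, and their reads cannot be divided among the contigs. Scaled to library totals, the mouse dendrite to soma ratio was 1.57 for Acaca and 0.217 for Elovl6. With the tract window opened 50 nt before the contig end, chosen after seeing the data, 15 contigs had a run, against 8. The causes of these shifts were not tested beyond what each setting removes.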
